A study of Mus musculus with 11 samples.

Results

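The genes described here are the ligands and receptors of axon guidance that were measured in mouse perigonadal white adipose tissue (pgWAT), a visceral fat depot. They were chosen by name as protein-coding semaphorins (Sema), plexins (Plxn), ephrins (Efn), Eph receptors (Eph), Slits, Robos, netrins (Ntn) and Unc5 receptors. The annotation held 66 such genes, and 60 of the 23507 gene rows in the count table were members. These were 20 semaphorins, 9 plexins, 8 ephrins, 11 Eph receptors, 2 Slits, 4 Robos, 2 netrins and 4 Unc5 receptors. Epha6, Epha8, Epha10, Ntn3, Ntn5 and Slit1 matched the rule but had no row and were not analysed here.

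Single cells of the stromal vascular fraction, the non-adipocyte cells of fat, were sequenced with Smart-seq2 from Pdgfrb-GFP reporter mice, which carry the transgene Tg(Pdgfrb-eGFP) on the C57BL6/J background. Animals were 12 to 20 weeks old and all carried the reporter, which the Pdgfrb promoter drives and which served as a sorting gate for stromal and mural cells. There were 11 plates from 3 male mouse ids (mice 1, 4 and 8) and 4 female mouse ids (mice 2, 3, 5 and 6/7, the last a pool of 2 animals). Cells were gated or panned on Pdgfrb-GFP, CD31 (an endothelial surface protein) and DPP4 (a surface protein of some stromal cells). By the methods, cells stained for CD45, a protein of all leukocytes, were gated out before sorting, a gate that would remove macrophages.

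Axon guidance ligands are secreted or membrane-bound cues that attract or repel growing axons and migrating cells. Semaphorins signal through plexins, the secreted class 3 semaphorins mostly together with neuropilins. Ephrins and Eph receptors are both membrane-bound, so they signal between touching cells and in both directions. Slits signal through Robos such as Robo1, and netrins through Unc5 receptors and Dcc. The same families guide sprouting vessels: Robo4 is largely endothelial, Ephb4 and Efnb2 are known as venous and arterial endothelial proteins, and Sema3e repels endothelial cells through Plxnd1.

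The table held 3261 cells with 149931 to 3548334 reads each. No cell name was shared between libraries, and no 2 cells had identical counts. Clustering without the members, followed by naming from fixed markers, gave 2250 adipose stem cell-like (ASC-like) cells, 559 endothelial-like (EC-like) cells, 137 macrophage-like cells, 60 pericyte-like cells, 41 vascular smooth muscle-like (VSMC-like) cells, 22 lymphatic EC-like cells and 19 epithelial-like cells, and left 173 cells unnamed. Reads were summed per mouse and class where at least 10 cells were present, which gave 7 ASC-like sums, 5 EC-like sums (mice 1, 2, 5, 6/7 and 8), 2 macrophage-like sums (mice 1 and 5) and 2 mural-like sums (pericyte-like plus VSMC-like cells, mice 1 and 2). Levels are CPM (reads of a gene relative to all reads in genes, on the usual scale) with TMM factors, which correct for the composition of each sum, and are given as mean ± SD over mice. Ribosomal RNA rows took between 29.9% (ASC-like, mouse 3) and 71.2% (mural-like, mouse 1) of the reads of a sum. The summed level of 4 blood EC markers was 2704 to 6308 CPM in EC-like sums and 2.70 to 20.9 CPM in ASC-like sums. That of 4 ASC markers was 10420 to 22820 CPM in ASC-like sums and 10.3 to 33.2 CPM in EC-like sums. A list of 10 adipocyte genes reached 1628 to 2425 CPM in EC-like sums against 20.9 to 206 CPM in ASC-like sums, and its part in the results was not tested.

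Of the 60 members, 39 reached 5 CPM on average in at least 1 of the 4 summed classes. Of these, 13 were highest in ASC-like cells, 10 in EC-like cells, 9 in mural-like cells and 7 in macrophage-like cells. ASC-like cells held 13 ligands and 11 receptors at 5 CPM or more, with summed levels of 690.9 CPM for ligands and 236 CPM for receptors. EC-like cells held 11 ligands and 8 receptors at that level, and the sums went the other way, at 687 CPM for ligands and 1102 CPM for receptors. Macrophage-like cells held 4 ligands and 8 receptors, with summed levels of 278 and 466.2 CPM. The remaining 21 members were below 5 CPM in all 4 classes, from 0.13 CPM for Sema4f to 4.58 CPM for Sema5b in their highest class.

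**Figure D1:**
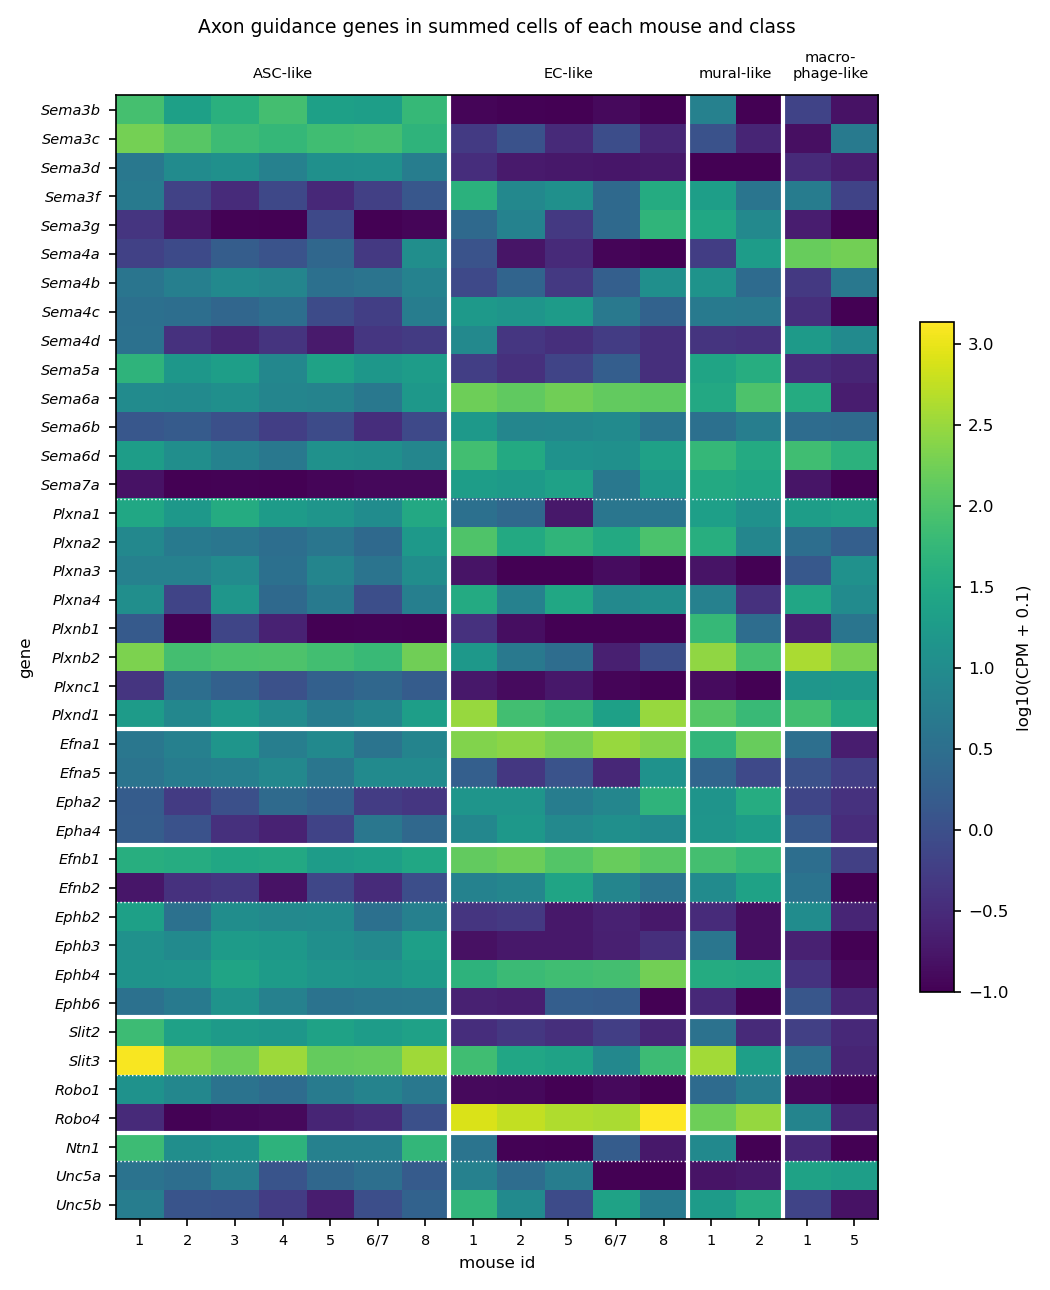
Heat map of log10(CPM + 0.1) for the 39 members that reached 5 CPM, with a row per gene and a column for each of the 16 sums of 1 mouse and class. Robo4 stands out in the EC-like columns (398.7 to 1357 CPM), Slit3 in the ASC-like columns (141.2 to 1245 CPM) and Sema4a in the macrophage-like columns (150.3 and 179.2 CPM).

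The first comparison asked which members differ between endothelial and stromal cells of the same fat pad. Members were tested with all genes in a single fit with the mouse as block, and called at an adjusted p below 0.05 and a fold change above 2.6. Of the 60 members, 46 passed the filter on low counts, and 34 of these were called (73.9%), 15 higher in EC-like and 19 higher in ASC-like cells. Over all genes tested in this comparison, 21.8% were called. The median log2 fold change (EC-like minus ASC-like) was -2.18 over the members tested and -0.19 over all genes. A gene can pass the filter through the class in which it is high, so these shares describe the members that passed and not the whole families. EC-like and ASC-like cells of mice 1, 2 and 6/7 came mostly from different plates. In a fit within the 3 plates that held at least 10 cells of each class, 16 of the 34 could be tested and 14 were called.

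**Figure D2:**
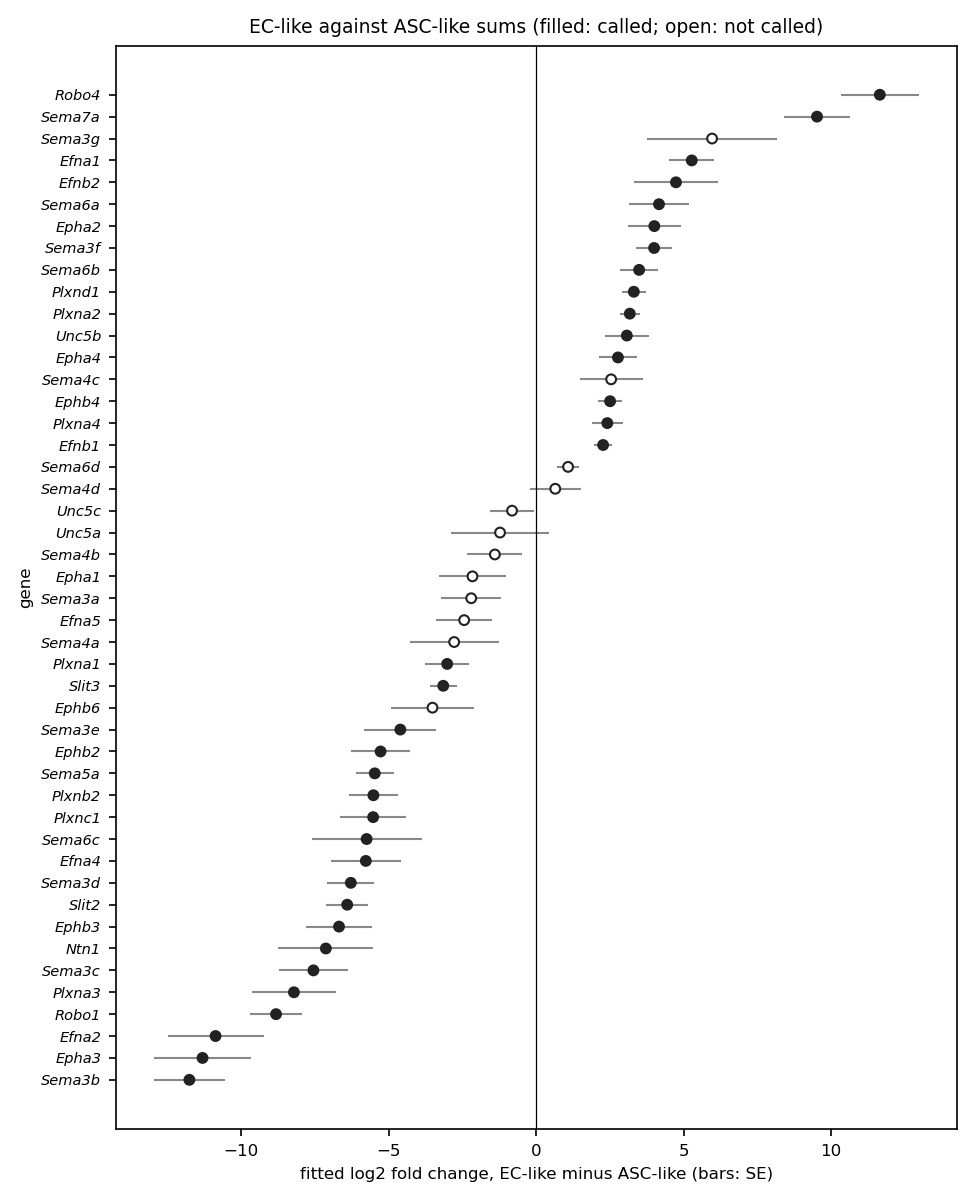
Log2 fold change (EC-like minus ASC-like) with its standard error for the 46 members tested, with filled points for the 34 called. Values run from -11.8 for Sema3b to 11.7 for Robo4.

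Both Slits and Robo1 were higher in ASC-like cells, and Robo4 in EC-like cells. Slit3, a secreted repellent, was the Slit of highest level per kilobase in every class. In ASC-like sums it ranged from 141.2 CPM over a median of 231.6 CPM to 1245 CPM in mouse 1 (375 ± 393.5 CPM, n = 7). In EC-like sums it was 72.14, 27.64, 23.98, 8.55 and 67.87 CPM in mice 1, 2, 5, 6/7 and 8 (40.04 ± 28.32 CPM, n = 5). All EC-like values lay below all ASC-like values (log2 fold change -3.15, SE 0.45, adjusted p = 0.000799). Slit2, its paralogue, ranged from 15.31 over 23.15 to 68.38 CPM in ASC-like sums, and was between 0.174 and 0.4757 CPM in the 5 EC-like sums (log2 fold change -6.41, SE 0.72, adjusted p = 0.000207). Both Slits were higher in the stromal cells of each of the 5 mouse ids with both classes.

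Robo4, the endothelial Robo, was 792.2, 566.9, 433.3, 398.7 and 1357 CPM in EC-like sums of mice 1, 2, 5, 6/7 and 8 (709.6 ± 393.4 CPM, n = 5). In ASC-like sums it did not exceed 0.905 CPM (0.223 ± 0.315 CPM, n = 7). The log2 fold change was 11.7 (SE 1.32, adjusted p = 0.000213), and 10.3 within plates. Thinned to 100000 reads per cell, the expected share of cells with a Robo4 read, computed from each cell's counts, was 85.5% in EC-like and 1.31% in ASC-like cells. Without thinning 94.99% and 6.31% had one, with a median of 518151 and 669509 reads per cell. Robo1, the receptor through which Slits repel axons, was on the side of the Slits, at a far lower level. It ranged from 2.84 over 5.15 to 12.7 CPM in ASC-like sums, and in EC-like sums it was 0.0273, 0.0216, 0, 0.0257 and 0 CPM, from 9 reads in all (log2 fold change -8.82, SE 0.89, adjusted p = 0.000118). Per kilobase of exon, Robo4 in EC-like cells was at 133.8 CPM, and Robo1 in ASC-like cells at 0.38 CPM. Robo2 and Robo3 stayed below 5 CPM in all 4 classes.

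The Robo4 promoter is shown because Robo4 had the highest level of all members in EC-like cells. It is the RefSeq window of 300 bases around the start of a RefSeq transcript (GRCm38.p6, plus strand, chr9:37401722-37402021), printed 5′ to 3′, with capitals for matches to the ETS core AGGAAG or the GC box GGGCGG on either strand.
Robo4: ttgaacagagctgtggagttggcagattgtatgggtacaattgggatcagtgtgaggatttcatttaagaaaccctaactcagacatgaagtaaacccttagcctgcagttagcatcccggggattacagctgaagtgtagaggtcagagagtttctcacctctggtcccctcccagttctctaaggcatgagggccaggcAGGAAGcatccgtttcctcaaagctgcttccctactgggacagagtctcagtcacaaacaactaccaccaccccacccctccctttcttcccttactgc
The window held 1 ETS core, a motif of a transcription factor family active in endothelium, and no GC box. ETS cores were present in 35.35% and GC boxes in 35.66% of all 32851 promoter windows of this length. A total of 68 windows belonged to 52 of the 60 members, of which 26 windows (38.24%) held an ETS core and 47 (69.12%) a GC box.

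In the ephrin-B family, the ligands Efnb1 and Efnb2 and the receptor Ephb4 were higher in EC-like cells, and the receptors Ephb2 and Ephb3 in ASC-like cells. Efnb1 led the ephrin-B ligands, at 138.3, 160, 106.9, 150.4 and 116.1 CPM in EC-like sums (134.3 ± 22.47 CPM, n = 5) against 19.34 to 38.85 CPM, median 29.4 CPM, in ASC-like sums. The groups did not overlap (log2 fold change 2.27, SE 0.31, adjusted p = 0.000607). Efnb2, the arterial ephrin, was 6.67, 7.88, 26.1, 7.43 and 3.83 CPM in EC-like sums and at most 0.893 CPM in ASC-like sums. Its difference was called (log2 fold change 4.74, SE 1.42, adjusted p = 0.0343), but not without mouse 6/7 (4.71, adjusted p = 0.096), and it could not be tested without mouse 2 or mouse 5.

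Ephb4, the venous receptor of Efnb2, was 46.88, 66.1, 72.04, 78.49 and 179.1 CPM in EC-like sums (88.52 ± 51.99 CPM) and 12.94 to 26.28 CPM, median 13.98 CPM, in ASC-like sums (log2 fold change 2.50, SE 0.42, adjusted p = 0.00189). The lowest EC-like value was above the highest ASC-like value. Exons of Ephb4 overlap those of Zan on the opposite strand, and Zan was at most 0.4465 CPM in these sums. ASC-like cells carried a wider set of EphB receptors. Ephb3 ranged from 8.62 over 12.03 to 21.2 CPM in ASC-like sums and was 0.0545, 0.0864, 0.0864, 0.129 and 0.261 CPM in EC-like sums (log2 fold change -6.69, SE 1.12, adjusted p = 0.00183). Ephb2 was 9.04 ± 6.37 CPM in ASC-like and 0.206 ± 0.142 CPM in EC-like sums (log2 fold change -5.28, SE 0.99, adjusted p = 0.00343). Ephb6, a member without kinase activity, was 5.70 ± 3.43 CPM in ASC-like and 0.664 ± 0.796 CPM in EC-like sums (adjusted p = 0.0993).

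Among the ephrin-A ligands, Efna1, first known as a cytokine-induced endothelial gene, was 221.7, 258.2, 191.3, 311.4 and 230.2 CPM in EC-like sums (242.6 ± 45.27 CPM, n = 5). In ASC-like sums it ranged from 3.75 over 6.33 to 14.4 CPM, well apart from the EC-like values (log2 fold change 5.27, SE 0.76, adjusted p = 0.000793). Its receptor Epha2 was 14.4, 14.04, 5.49, 7.69 and 48.6 CPM in EC-like sums against 0.343 to 2.55 CPM in ASC-like sums (log2 fold change 4.00, SE 0.89, adjusted p = 0.00865). Epha4, which binds ephrins of both classes, was 8.21, 15.7, 8.82, 11.3 and 9.22 CPM in EC-like and 0.145 to 4.21 CPM in ASC-like sums (log2 fold change 2.77, SE 0.63, adjusted p = 0.0099). The Epha4 call was lost without mouse 2 (2.56, adjusted p = 0.051). Efna5 was 6.64 ± 2.41 CPM in ASC-like and 3.18 ± 5.31 CPM in EC-like sums (adjusted p = 0.0927).

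Epha3 and Efna2 were low members with few or no EC-like reads. Epha3 ranged from 0.974 over 2.74 to 6.997 CPM in ASC-like sums and had 0 reads in all 5 EC-like sums, at least 406-fold lower when 3 reads over the EC-like group are taken as the floor. Efna2 ranged from 1.79 over 3.29 to 6.91 CPM in ASC-like sums and had 1 read in EC-like cells (mouse 1, 0.0136 CPM). Epha1 led the EphA receptors per kilobase in ASC-like cells at 0.887 CPM and ranged from 0.9754 to 5.21 CPM, but its exons overlap those of Zyx, which was at 208.9 CPM on average in the same cells, and reads of the 2 genes cannot be told apart.

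Netrin-1 (Ntn1), a secreted cue, was the leading netrin of ASC-like cells, from 6.34 over 13.3 to 67.7 CPM. In EC-like sums it was 3.80, 0.00432, 0, 1.48 and 0.087 CPM in mice 1, 2, 5, 6/7 and 8, below every ASC-like value (log2 fold change -7.13, SE 1.61, adjusted p = 0.00933). Its repulsive receptor Unc5b was 52.8, 9.24, 0.778, 24.2 and 4.70 CPM in EC-like sums and 0.113 to 5.59 CPM in ASC-like sums (log2 fold change 3.07, SE 0.75, adjusted p = 0.0135). EC-like values of Unc5b spread widely, and the groups overlapped. Between ASC-like and EC-like cells, the ligand Ntn1 was thus higher in the former and the receptor Unc5b in the latter. Slit3 and Robo4 divided in the same way, and no binding was measured. Other classes also held these genes. Unc5b was 18.2 and 36.7 CPM and Slit3 366.6 and 21.3 CPM in mural-like sums. Per kilobase, Ntn1 was at 43.96 CPM in pooled lymphatic EC-like cells and at 4.70 CPM in ASC-like cells.

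**Figure D3:**
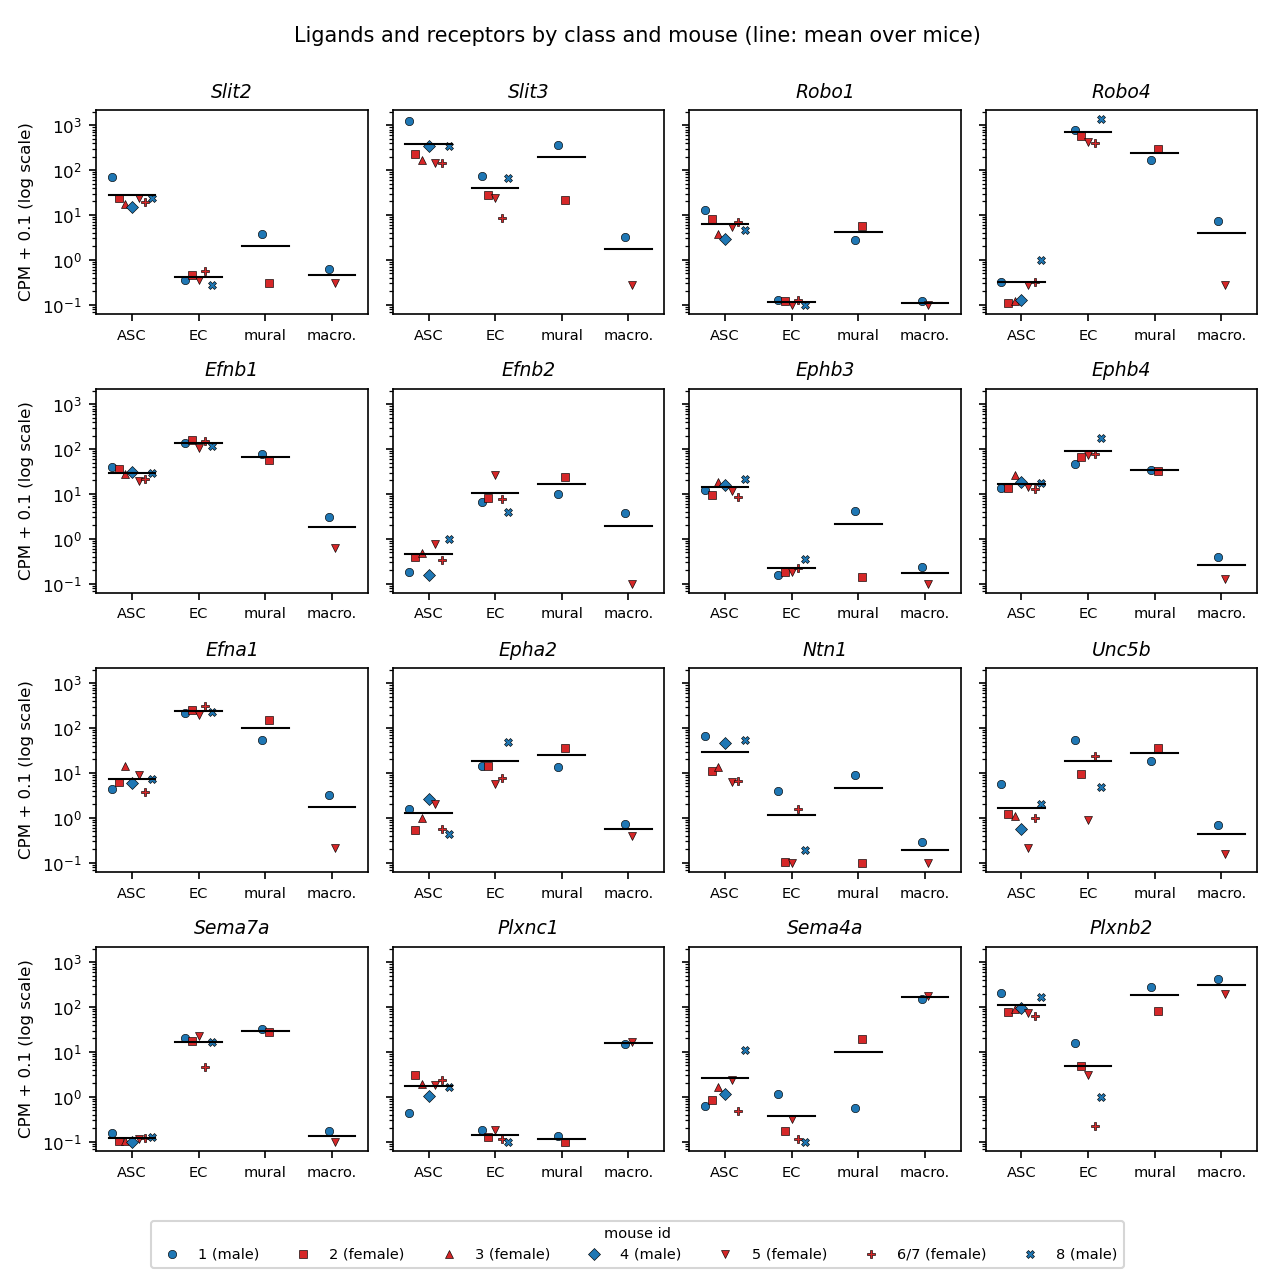
Levels (CPM + 0.1, log axis) of 16 ligands and receptors in the 4 summed classes, with a point per mouse (blue male, red female) and a line at the mean over mice. Slit3, Slit2, Robo1, Ephb3 and Ntn1 are highest in ASC-like cells, Robo4, Efna1, Efnb1 and Ephb4 in EC-like cells, and Sema4a, Plxnb2 and Plxnc1 in macrophage-like cells.

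Secreted class 3 semaphorins divided between the cell classes. Sema3c had the highest level per kilobase of all semaphorins in ASC-like cells (12.5 CPM per kilobase), with levels from 48.08 over 72.95 to 185.7 CPM. In EC-like sums it was 0.395, 0.998, 0.216, 0.849 and 0.174 CPM (log2 fold change -7.56, SE 1.18, adjusted p = 0.00127). Sema3b ranged from 20.57 over 42.3 to 81.45 CPM in ASC-like sums, and EC-like cells had 4 reads in all, or 0.0136, 0.00432, 0, 0.0257 and 0 CPM (log2 fold change -11.8, SE 1.20, adjusted p = 0.000123). Sema3d was 8.79 ± 3.24 CPM in ASC-like and 0.119 ± 0.0711 CPM in EC-like sums (log2 fold change -6.29, SE 0.79, adjusted p = 0.000597). These 3 ligands were lower in every EC-like sum than in any ASC-like sum.

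Sema3f and Sema3g had the opposite direction. Sema3f, a repellent of lymphatic and blood endothelium through Nrp2, was 44.3, 8.35, 11.6, 2.53 and 34.9 CPM in EC-like sums and 0.198 to 4.93 CPM in ASC-like sums (log2 fold change 4.00, SE 0.62, adjusted p = 0.00116). Sema3g, an arterial endothelial semaphorin, was 12.5 ± 21.2 CPM in EC-like and 0.163 ± 0.268 CPM in ASC-like sums, with most of its EC-like level in mouse 8 (50.1 CPM, the next 6.79 CPM), and was not called (adjusted p = 0.0776). Sema3b and Sema3f, whose levels lay on opposite sides, are neighbours on chromosome 9, 72.3 kb apart.

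Membrane-bound semaphorins of EC-like cells were led by Sema6a, a transmembrane ligand of Plxna2 and Plxna4, at 164.1, 131, 170.3, 136.4 and 126.8 CPM. In ASC-like sums it was 4.35 to 16.2 CPM (log2 fold change 4.16, SE 1.00, adjusted p = 0.0131). Sema7a, a GPI-anchored ligand of Plxnc1, was 20.1, 17.7, 23.1, 4.45 and 16.6 CPM in EC-like sums and at most 0.0574 CPM in ASC-like sums (log2 fold change 9.52, SE 1.104, adjusted p = 0.000244). Sema6b was 9.20 ± 4.63 CPM in EC-like and 0.824 ± 0.401 CPM in ASC-like sums (log2 fold change 3.49, adjusted p = 0.00353). Sema6d (30.9 ± 26.2 against 10.4 ± 4.93 CPM, adjusted p = 0.0582), Sema4c (11.2 ± 7.52 against 2.61 ± 1.67 CPM, adjusted p = 0.118), Sema4d (2.03 ± 3.81 against 0.718 ± 1.17 CPM, adjusted p = 0.653) and Sema4b (3.21 ± 4.53 against 5.71 ± 2.15 CPM, adjusted p = 0.328) were not called between EC-like and ASC-like cells. Sema5a, a transmembrane semaphorin with thrombospondin repeats, was a stromal member, at 21.6 ± 13.0 CPM in ASC-like and 0.649 ± 0.555 CPM in EC-like sums (log2 fold change -5.48, SE 0.65, adjusted p = 0.000265).

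Plexins, the semaphorin receptors, differed by class as well. Plxnd1, the endothelial plexin, was 315.2, 75.35, 57.17, 22.35 and 316.6 CPM in EC-like sums and 5.39 to 20.74 CPM, median 9.79 CPM, in ASC-like sums (log2 fold change 3.31, SE 0.40, adjusted p = 0.000304). Plxna2 was 98.25, 32.64, 50.13, 32.0 and 89.89 CPM in EC-like and 2.46 to 16.9 CPM in ASC-like sums (log2 fold change 3.17, SE 0.34, adjusted p = 0.000163). Neither gene had overlapping groups. Plxna4 was 33.4, 6.36, 29.1, 8.86 and 10.4 CPM in EC-like sums and 5.77 ± 5.28 CPM in ASC-like sums (log2 fold change 2.41, SE 0.52, adjusted p = 0.00718). Without the mouse as block the Plxna4 difference was 1.61 (adjusted p = 0.15), and within plates it was 2.47 (adjusted p = 0.17).

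Plxnb2, a receptor of class 4 semaphorins, was the leading plexin of ASC-like cells, from 63.31 over 92.31 to 207.1 CPM. In EC-like sums it was 15.6, 4.65, 2.94, 0.129 and 0.87 CPM (log2 fold change -5.52, SE 0.84, adjusted p = 0.0011). Plxna3 ranged from 3.26 over 6.44 to 10.5 CPM in ASC-like sums and came to 0.0682, 0, 0, 0.0386 and 0 CPM, or 8 reads, in EC-like cells (log2 fold change -8.22, SE 1.42, adjusted p = 0.00221). Plxna1 was 21.96 ± 9.65 CPM in ASC-like and 2.80 ± 1.67 CPM in EC-like sums (log2 fold change -3.02, SE 0.75, adjusted p = 0.0149), and its call was lost without mouse 1 (-3.12, adjusted p = 0.074) or mouse 2 (-3.03, adjusted p = 0.06). Within plates the Plxna1 difference was -3.42 and was not called (adjusted p = 0.18). Plxnc1 was 1.66 ± 0.859 CPM in ASC-like and 0.0423 ± 0.0397 CPM in EC-like sums (log2 fold change -5.53, adjusted p = 0.00514). With classes set from each cell's own markers, Plxnc1 was not called (-4.51, adjusted p = 0.11).

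The remaining called members, Efna4, Sema6c and Sema3e, were higher in ASC-like cells at means of 2.74, 1.65 and 3.70 CPM. Calls of Sema6c (adjusted p = 0.0478) and Sema3e (adjusted p = 0.0204) were lost when single mice were left out. Without mouse 5 the log2 fold change of Sema3e was -4.36 (adjusted p = 0.064), and without mouse 8 it was -4.28 (adjusted p = 0.059). Sema6c was lost without mouse 5, 6/7 or 8 (adjusted p = 0.107 to 0.139). Exons of Efna3, Efna4, Plxna1, Plxnb1 and Sema4c also overlap another counted gene, whose highest level in any sum was 7.52 CPM.

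Macrophage-like cells were described by 2 sums, so each value is shown. Mouse 1 gave 73 such cells on its CD31-positive plate and 3 on its Pdgfrb-GFP-positive plate. Mouse 5 gave 61 on a plate labelled Pdgfrb-GFP-positive, which also held its 46 EC-like cells. How these cells passed the gates was not tested. The 4 macrophage markers summed to 887.4 and 1290 CPM in the 2 macrophage-like sums, against at most 15.1 CPM in EC-like and 5.96 CPM in ASC-like sums. The lymphatic EC list summed to 542.7 and 830 CPM in the same sums, nearly all of it Lyve1 (520.3 CPM over the class), a gene that macrophages also express, while Prox1 was at 0.161 and Flt4 at 1.24 CPM. Sema4a, an immune semaphorin, was 150.3 CPM in mouse 1 and 179.2 CPM in mouse 5, while it reached at most 10.9 CPM in ASC-like and 1.05 CPM in EC-like sums. Plxnb2, a Sema4 receptor, was 412 and 197.1 CPM, and Plxnc1, the Sema7a receptor, was 14.6 and 16.2 CPM. Against EC-like cells Sema4a (log2 fold change 8.99, SE 1.73, adjusted p = 0.00816), Plxnc1 (8.24, SE 1.35, adjusted p = 0.00377) and Plxnb2 (5.91, SE 0.95, adjusted p = 0.00338) were higher. These calls were lost when mouse 5 was left out (adjusted p = 0.107, 0.0778 and 0.062), that of Plxnb2 also without mouse 1 (0.06).

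Of the 46 members tested between macrophage-like and EC-like cells, 18 were called (39.1%), 6 higher and 12 lower in macrophage-like cells, beside 13.9% of all genes. Calls of 5 of them held without each mouse in turn, namely those of Efna1 (log2 fold change -7.23), Efnb1 (-6.56), Ephb4 (-8.75), Plxna2 (-4.90) and Slit3 (-5.99). Between macrophage-like and ASC-like cells 14 of 46 were called (30.4%), 2 higher and 12 lower, beside 15.0% of all genes. Ephb4 (-6.24), Efnb1 (-4.29) and Slit3 (-9.15) held without each mouse. The higher pair was Plxnd1 (75.26 and 31.15 CPM in macrophage-like sums, log2 fold change 2.10, adjusted p = 0.0232) and Sema6d (73.46 and 45.34 CPM, log2 fold change 1.90, adjusted p = 0.0316). Neither held without mouse 1 (adjusted p = 0.136 and 0.175) or without mouse 5 (adjusted p = 0.215 and 0.175). Sema4a (log2 fold change 6.21, adjusted p = 0.067) and Sema4d, a semaphorin of lymphoid and myeloid cells (18.0 and 9.36 CPM, log2 fold change 4.62, adjusted p = 0.057), were not called against ASC-like cells. The expected share of cells with a Sema4a read at the thinned depth was 72.1% in macrophage-like, 3.82% in EC-like and 2.46% in ASC-like cells (81.75%, 11.81% and 6.49% without thinning).

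The receptors Plxna1 (19.9 and 23.0 CPM) and Plxna4 (mean 18.7 CPM) were also present in macrophage-like cells. Unc5a stood at 24.3 and 20.4 CPM in macrophage-like sums, against means of 2.97 CPM in ASC-like and in EC-like sums. Its exons overlap those of the hexokinase gene Hk3 on the opposite strand. Hk3 was at 33.0 to 46.0 CPM in the same 2 sums and at most 0.19 CPM in the others, and reads of the 2 genes cannot be told apart. Dominant ephrin and Eph members of the vessel wall were at low levels in macrophage-like cells, with means of 1.61 CPM for Efna1, 1.77 CPM for Efnb1 and 0.165 CPM for Ephb4.

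Mural-like cells wrap the vessel wall, and their sums carried endothelial RNA. The 4 blood EC markers summed to 641 CPM in mouse 1 and 3225 CPM in mouse 2, and 29 of the 60 pericyte-like cells exceeded the limit set for the markers of another class. Mouse 2 contributed 13 mural-like cells, and 38 of the 41 VSMC-like cells came from mouse 1. Between mural-like and ASC-like cells 13 of 46 members were called (28.3%), 6 higher and 7 lower, beside 8.14% of all genes. Robo4 (167 and 302 CPM, log2 fold change 10.5, SE 1.596, adjusted p = 0.00502) and Sema7a (31.7 and 27.2 CPM, log2 fold change 10.2, SE 1.36, adjusted p = 0.00277) were the 2 that held without each mouse in turn. When cells with markers of another class were left out, 1 member was called and Robo4 was not (log2 fold change 7.49, adjusted p = 0.0906). Other members higher in mural-like sums were Efna1 (52.9 and 149.3 CPM), Epha2 (mean 24.8 CPM), Epha4 (17.2 CPM) and Plxnd1 (86.4 CPM). Without the mixed cells their adjusted p were 0.346, 0.191, 0.188 and 0.119, and without mouse 2 they were 0.489, 0.357, 0.359 and 0.228. Mural-like sums had 0 reads of Sema3d, at least 160.7-fold below ASC-like sums at a floor of 3 reads over the group.

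Between mural-like and EC-like cells 3 of 46 members were called (6.52%), all higher in mural-like cells, beside 2.29% of all genes. They were Sema5a (26.3 and 38.1 CPM, log2 fold change 6.08, SE 0.84, adjusted p = 0.00557), Robo1 (2.73 and 5.51 CPM, log2 fold change 7.38, SE 1.02, adjusted p = 0.00566) and Plxnb2 (283.6 and 80.6 CPM, log2 fold change 4.83, SE 0.89, adjusted p = 0.0226). None of the 3 calls held without mouse 1 (adjusted p = 0.0717, 0.0754 and 0.192) or without mouse 2 (0.0799, 0.0889 and 0.116). Efnb2 was 9.65 and 23.5 CPM, Unc5b 18.2 and 36.7 CPM, Slit3 366.6 and 21.3 CPM, and Plxnb1, a Sema4d receptor, 59.4 and 2.86 CPM in mural-like sums. Sema3g was at a mean of 19.0 CPM there.

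Pericyte-like and VSMC-like cells differed within this mural group when pooled over mice, for which no test was made. Pooled levels are given with exact 95% Poisson intervals, which treat reads as independent and cover counting error of reads only. Slit3 was 460.7 CPM (450 to 471.8) in VSMC-like and 116.1 CPM (113.1 to 119.2) in pericyte-like cells. Robo4 was 2.87 CPM (2.08 to 3.87) in VSMC-like and 257.9 CPM (253.4 to 262.5) in pericyte-like cells. Plxnb2 (396.5 against 119 CPM), Sema3b (47.2 against 1.599 CPM), Sema6c (32.2 against 0.125 CPM) and Ntn4, a basement membrane netrin (14.4 against 0.125 CPM), were higher in the VSMC-like pool. Efna1 (4.27 against 107.3 CPM) and Unc5b (0.2002 against 29.98 CPM) were higher in the pericyte-like pool. Per kilobase, Plxnd1 was at 21.29 CPM in the VSMC-like and 8.70 CPM in the pericyte-like pool, beside 21.55 CPM in EC-like sums. Of the 60 pericyte-like cells 29 exceeded the limit for markers of another class, against 2 of the 41 VSMC-like cells. These cells were kept in the pools, and their part in the differences was not tested.

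Lymphatic EC-like cells (22 cells from 4 mouse ids) and epithelial-like cells (19 cells, all from mouse 1) gave pooled levels of their own. Ntn1 was 275.9 CPM (266.2 to 286) in lymphatic EC-like cells, against a mean of 1.08 CPM in blood EC-like sums, and the expected share of cells with a Ntn1 read at the thinned depth was 64.5% against 1.34% in blood EC-like cells (68.18% against 3.58% without thinning). Sema3f was 104.9 CPM (98.9 to 111.1) and Sema3d 88.2 CPM (82.7 to 93.9) in the lymphatic pool. Efna1 (269.7 CPM), Robo4 (282.3 CPM), Ephb4 (159.7 CPM) and Unc5b (31.4 CPM) were present there as in blood EC-like cells, while Sema3b had 0 reads. Of the 22 lymphatic EC-like cells, 16 were also named so by their own markers. The mixed-cell limit did not count blood EC markers in this class, so carry-over of blood EC RNA was not tested. In epithelial-like cells the leading members were Sema3b (205.9 CPM), Plxnb2 (112.6 CPM), Plxnb1 (106.2 CPM), Sema3c (99.8 CPM), Sema4b (66.5 CPM), Epha1 (48.2 CPM) and Sema4d (42.5 CPM). Reads of Epha1 cannot be told apart from those of Zyx here either. Sema4d and both of its B plexins were thus detected together in the epithelial-like pool.

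ASC-like cells were next divided into 3 subtypes by marker scores that used no member: 807 ASC1a-like, 668 ASC1b-like and 775 ASC2-like cells. ASC2 is the DPP4-expressing subtype. For 488 of the 2250 cells the 2 highest scores lay within 0.25 of each other, so the subtypes are ranges of a score. Markers were scaled within each mouse and each cell took its highest score, so every mouse was divided among all 3 subtypes. Mouse 4, for example, gave 126 ASC1a-like, 116 ASC1b-like and 121 ASC2-like cells. The labels thus rank cells within a mouse and do not compare how common the subtypes are between mice. The study's own clusters placed almost all ASC of mouse 4 outside ASC2 and those of mouse 1 outside ASC1a. In such mice a label may hold few or no cells of the subtype it names. Differences within a mouse are therefore between ranks of a score. Sema3c was 428.7, 286.9, 167.9, 111.7, 187.7, 170 and 120.6 CPM in ASC2-like sums of mice 1, 2, 3, 4, 5, 6/7 and 8. In ASC1a-like sums of the same mice it was 45.0, 23.4, 14.3, 25.1, 4.73, 24.8 and 19.5 CPM. ASC2-like cells were higher in each mouse (log2 fold change 3.27, SE 0.30, adjusted p = 2e-06). Against ASC1b-like cells, at 35.3 ± 25.1 CPM, the log2 fold change was 2.71 (adjusted p = 1.4e-05).

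Sema3e, the Plxnd1 ligand, was 27.3, 7.71, 3.02, 18.5, 0.861, 1.70 and 14.9 CPM in ASC2-like sums and 0.0568 to 0.467 CPM in ASC1a-like sums (log2 fold change 5.12, SE 0.59, adjusted p = 1.6e-05). Against ASC1b-like sums, at 0 to 1.14 CPM, it was 4.37 (adjusted p = 5.2e-05). Sema3d was 7.70, 19.9, 25.6, 11.1, 27.2, 24.1 and 6.40 CPM in ASC2-like sums and 0 to 1.87 CPM in ASC1a-like sums (log2 fold change 3.90, SE 0.55, adjusted p = 0.000126). In ASC1b-like sums Sema3d was 6.85 to 11.1 CPM, higher than in ASC1a-like sums (log2 fold change 2.99, SE 0.53, adjusted p = 0.00761). That call was lost without the mouse as block (2.81, adjusted p = 0.051).

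Plxnd1, the receptor of Sema3e, went the other way within ASC-like cells. It was 0.351, 2.22, 3.53, 3.46, 0.492, 3.21 and 10.6 CPM in ASC2-like sums and 41.3, 14.97, 25.2, 19.1, 7.55, 13.5 and 20.6 CPM in ASC1a-like sums (log2 fold change -2.79, SE 0.52, adjusted p = 0.00148). ASC2-like cells were lower in each mouse. Against ASC1b-like sums, at 14.6 ± 10.5 CPM, it was -2.16 (adjusted p = 0.012), and -2.10 without the block (adjusted p = 0.09).

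In all, 4 of the 32 members tested were called between ASC2-like and ASC1a-like cells (12.5%, beside 3.27% of all genes), 1 between ASC1b-like and ASC1a-like cells (3.12%, beside 0.368%) and 5 between ASC2-like and ASC1b-like cells (15.6%, beside 3.02%). The last set included Plxnc1 (log2 fold change -3.84, adjusted p = 0.0296) and Efna1 (log2 fold change -2.33, adjusted p = 0.0222). In ASC1b-like sums Efna1 was 8.83, 12.6, 28.9, 9.15, 13.1, 11.5 and 16.2 CPM, and in ASC2-like sums 0.248, 2.42, 7.67, 4.26, 12.9, 0.291 and 1.96 CPM. Plxnc1 was lower in the ASC2-like sum of all mouse ids but 6/7, with 0.0206 to 3.58 CPM (median 0.0433 CPM) against 1.34 to 5.34 CPM (median 2.09 CPM) in ASC1b-like sums. The Efna1 call was lost without mouse 2, 3, 6/7 or 8 (adjusted p = 0.0608 to 0.0714), and that of Plxnc1 without mouse 1, 3, 4 or 8 (adjusted p = 0.0598 to 0.0905).

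**Figure D4:**
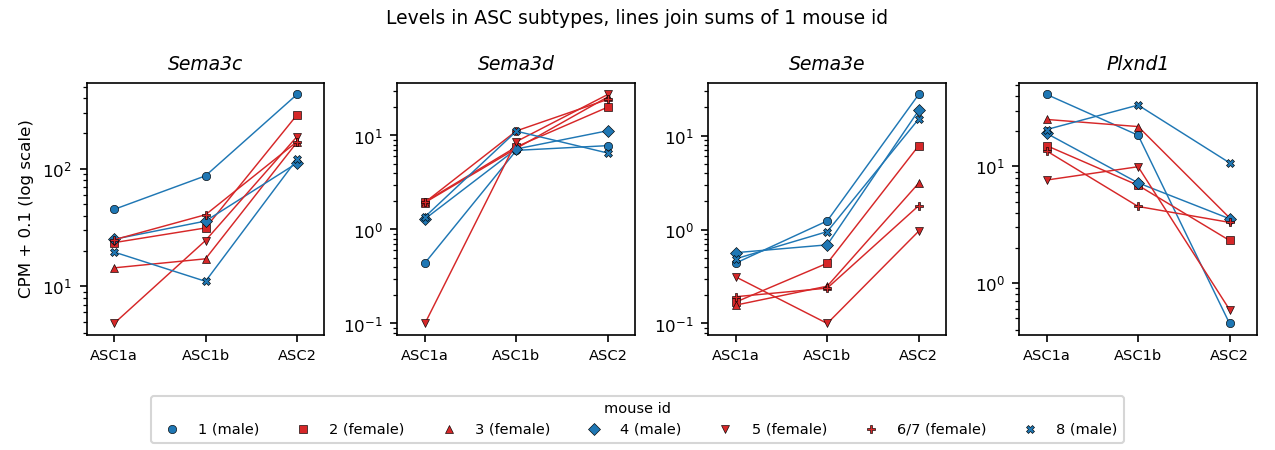
Levels (CPM, log axis) of Sema3c, Sema3d, Sema3e and Plxnd1 in ASC1a-like, ASC1b-like and ASC2-like sums, with a line per mouse. Sema3c is highest in the ASC2-like sum of each of the 7 mice (111.7 to 428.7 CPM), and Plxnd1 is lower there (0.351 to 10.6 CPM) than in ASC1a-like sums.

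Sema3d, Sema3e and Sema3c lie on chromosome 5. Sema3a, which averaged at most 1.51 CPM in the 4 classes, lies between Sema3d and Sema3e, 536.5 kb from the former and 422.7 kb from the latter, and Sema3e and Sema3c are 3.32 Mb apart. Their promoter windows and that of Plxnd1 are shown because these 4 genes differed between the ASC subtypes (RefSeq, GRCm38.p6, 300 bases around the start of a RefSeq transcript, 5′ to 3′ on the gene's strand, capitals for GC boxes GGGCGG and ETS cores AGGAAG on either strand). They are chr5:17574566-17574865 for Sema3c, chr5:12382916-12383215 for Sema3d and chr5:14025026-14025325 for Sema3e, all on the plus strand, and chr6:115994956-115995255 on the minus strand for Plxnd1. The annotation used to choose the members starts Sema3c at base 17574281, before its window, and Sema3d at base 12383385, after its window.
Sema3c: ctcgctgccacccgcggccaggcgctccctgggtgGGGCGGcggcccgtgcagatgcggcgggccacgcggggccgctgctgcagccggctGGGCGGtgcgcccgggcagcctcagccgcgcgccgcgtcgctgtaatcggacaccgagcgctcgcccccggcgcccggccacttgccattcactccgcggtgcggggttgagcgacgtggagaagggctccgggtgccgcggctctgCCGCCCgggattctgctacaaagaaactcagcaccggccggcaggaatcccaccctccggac
Sema3d: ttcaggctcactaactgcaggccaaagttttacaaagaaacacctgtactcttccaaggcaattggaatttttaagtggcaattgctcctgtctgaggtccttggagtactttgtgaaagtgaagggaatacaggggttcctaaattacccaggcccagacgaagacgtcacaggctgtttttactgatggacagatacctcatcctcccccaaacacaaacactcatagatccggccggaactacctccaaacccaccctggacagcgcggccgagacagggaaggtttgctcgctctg
Sema3e: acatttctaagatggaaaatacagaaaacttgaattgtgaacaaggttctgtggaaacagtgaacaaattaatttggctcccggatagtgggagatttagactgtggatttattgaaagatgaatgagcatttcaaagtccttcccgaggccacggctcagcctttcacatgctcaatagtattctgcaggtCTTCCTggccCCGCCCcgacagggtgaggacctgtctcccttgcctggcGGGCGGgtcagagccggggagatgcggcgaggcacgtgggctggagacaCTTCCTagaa
Plxnd1: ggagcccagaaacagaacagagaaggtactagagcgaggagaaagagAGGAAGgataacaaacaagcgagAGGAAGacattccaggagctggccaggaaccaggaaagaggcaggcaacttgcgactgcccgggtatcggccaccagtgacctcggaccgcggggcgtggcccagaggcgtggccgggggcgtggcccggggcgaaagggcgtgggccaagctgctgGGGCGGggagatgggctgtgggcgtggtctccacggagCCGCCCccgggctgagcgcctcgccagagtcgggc
The Sema3c window held 3 GC boxes and no ETS core, those of Sema3e and Plxnd1 each held 2 of both, and that of Sema3d held neither. The windows of the 3 ligands that were higher in ASC2-like cells thus did not share either motif.

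Mouse 2 was sampled on a DPP4-positive plate (379 ASC-like cells) and a DPP4-negative plate (368 ASC-like cells), a sort that marks ASC2 cells by protein. With 1 plate per sort there was no test. Sema3c was 240.5 CPM on the DPP4-positive and 22.1 CPM on the DPP4-negative plate, Sema3e 6.04 against 0.231 CPM (1993 against 87 reads) and Sema3d 16.9 against 4.99 CPM. Plxnd1 was 5.28 against 12.2 CPM. Efnb1 (60.0 against 22.6 CPM) and Sema3b (37.8 against 13.1 CPM) were also higher on the DPP4-positive plate, and Slit3 was 293.6 against 220.6 CPM.

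Male and female ASC-like cells were compared over 3 male and 4 female mouse ids. The sum of female 2 joined a DPP4-positive and a DPP4-negative plate (379 and 368 cells), while labels of the other mice name no DPP4 sort. On these plates Ntn1 was 13.0 and 11.4 CPM and Sema3b 37.8 and 13.1 CPM. The part of this sort in the differences was not tested beyond leaving out mouse 2. Of the 37 members tested, 2 were called (5.41%, beside 2.23% of all genes), both higher in males. Ntn1 was 67.72, 47.16 and 54.3 CPM in males 1, 4 and 8 and 11.07, 13.3, 6.34 and 6.54 CPM in females 2, 3, 5 and 6/7. The lowest male value was above the highest female value (log2 fold change 2.58, SE 0.33, adjusted p = 0.00413), and the call held without each mouse in turn. Sema3b was 81.45, 77.5 and 57.56 CPM in males and 22.4, 42.3, 22.25 and 20.57 CPM in females (log2 fold change 1.41, SE 0.31, adjusted p = 0.0464). Its call was lost without any of mice 1, 2, 4, 5, 6/7 and 8 (adjusted p = 0.0739 to 0.172), and the log2 fold change was 0.78 (adjusted p = 0.31) with library totals in place of TMM factors. Slit3 did not overlap between males (1245, 341.8 and 349.5 CPM) and females (141.2 to 231.6 CPM) but was not called (log2 fold change 1.91, adjusted p = 0.072). Sema3e (5.04 to 9.90 against 0.367 to 2.68 CPM), Plxnb2 (93.71 to 207.1 against 63.31 to 92.31 CPM) and Sema4c (3.05 to 5.46 against 0.475 to 3.01 CPM) also did not overlap, with males above females, and were not called (adjusted p = 0.0766, 0.133 and 0.324). Sema3d (4.48 to 6.35 against 9.58 to 12.2 CPM), Efna2 (1.79 to 2.61 against 3.29 to 6.91 CPM), Sema3a (0.367 to 0.955 against 1.70 to 2.54 CPM) and Plxnc1 (0.337 to 1.52 against 1.74 to 2.985 CPM) did not overlap with females above males, and were not called either (adjusted p = 0.0809, 0.133, 0.204 and 0.281). Outside the test, Robo2 had females above males, and the low members Efna3 and Sema3f had males above females. The share of all genes without overlap was not computed, so the lack of overlap is no result about these members. By the edgeR quasi-likelihood test, 10 of the 37 members had an unadjusted p below 0.05, beside 2298 of 11821 genes. Ribosomal RNA rows took 66.9%, 31.7% and 58.5% of the reads in males 1, 4 and 8 and 29.9% to 54.1% in females, and TMM factors were 0.649 and 0.595 in males 1 and 8 against 1.04 to 1.40 in the other 5. Their part in the differences was not tested beyond leaving out these rows and mice.

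In EC-like cells 0 of 19 members tested were called between 2 male and 3 female mouse ids by the edgeR quasi-likelihood test, beside 0.0494% of all genes, and 6 of the 19 had an unadjusted p below 0.05, beside 614 of 8101 genes. DESeq2 and the edgeR likelihood ratio test each called 1. Plxnd1 was 315.2 and 316.6 CPM in males 1 and 8 and 75.35, 57.17 and 22.35 CPM in females 2, 5 and 6/7 (log2 fold change 2.64, unadjusted p = 0.00135 from the edgeR model, adjusted p = 0.365). No test was made of the sex difference in one class against that in the other.

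**Figure D5:**
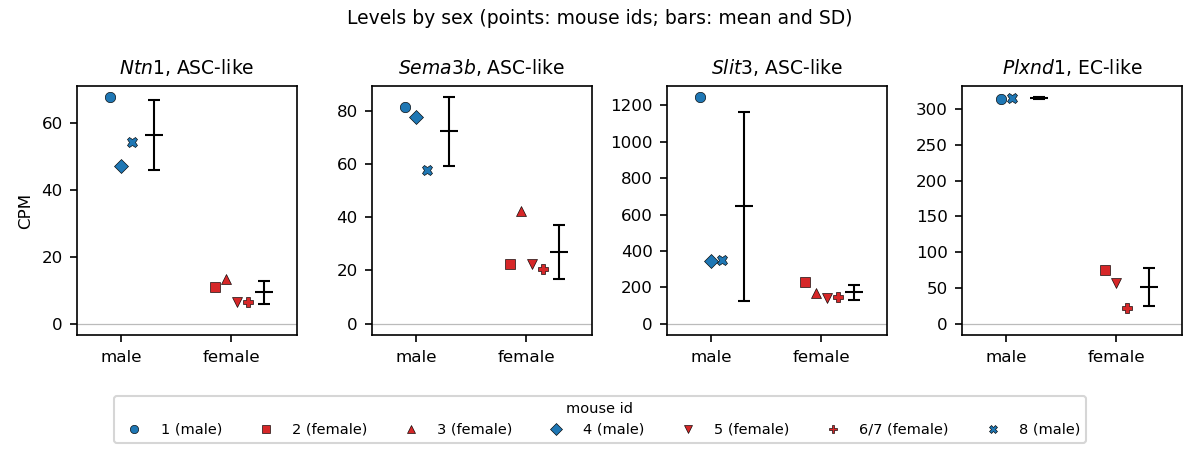
Levels (CPM) of Ntn1, Sema3b and Slit3 in ASC-like sums and of Plxnd1 in EC-like sums by sex, with a point per mouse and the mean ± SD. The 3 male points of Ntn1 (47.2 to 67.7 CPM) lie above the 4 female points (6.34 to 13.3 CPM).

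A pair of fixed lists gave the rest of the pathway. Of 16 co-receptors and other ligands 12 could be tested between EC-like and ASC-like cells, with 3 higher in EC-like and 3 higher in ASC-like cells, where 21.8% of all genes were called. The neuropilins, which bind class 3 semaphorins together with plexins, were among the former: Nrp1 was 479.8 ± 119.7 CPM in EC-like and 70.3 ± 13.1 CPM in ASC-like sums (log2 fold change 2.78, adjusted p = 2.5e-05), and Nrp2 averaged 54.3 and 11.1 CPM (log2 fold change 2.32). Flrt2 (-9.22) and Flrt3 (-6.96), adhesion proteins that bind Unc5 receptors, and Rgma (-4.84), a ligand of neogenin, were the stromal ones. Of 42 intracellular effectors 39 could be tested, with 7 higher in EC-like cells, such as the adaptor Sh2d3c (6.73) and the GTPase Rnd1 (3.86), and 6 higher in ASC-like cells, such as the kinases Pak1 (-7.74) and Limk1 (-6.30). Between the sexes 1 of 38 effectors tested (Vav3, higher in male ASC-like cells) and 0 of 12 co-receptors were called by the edgeR test, beside 2.23% of all genes, and between ASC2-like and ASC1b-like cells Nrp2 was lower (-1.42).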

How the data were processed

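Stromal vascular fraction cells of pgWAT were profiled with Smart-seq2. According to the study's methods and the labels, the authors aligned reads with STAR to mm10 with ERCC spike-ins, quantified genes with Salmon and imported them with tximport. The values as deposited are counts, whole numbers for each gene in each cell. For strand use in counting, nothing was given in the sources used here. Exons of 13 members overlap another gene, 8 of them one that is also counted. Smart-seq2 reads carry no molecular identifiers, so reads copied from the same molecule cannot be told apart. Poisson intervals and floors of 3 counts treat reads as independent and cover counting error of reads only, not of molecules. ERCC reads (1.98%) were left out of totals.

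Cells were clustered with Seurat 5.3.0 after removing the 60 members from the variable genes, and clusters were named from fixed markers. No doublet caller was run, and cells carrying over 10% of the median level of another class's markers were left out as an alternative. Counts were summed per mouse id and class (at least 10 cells) and tested with edgeR 4.0.16 (quasi-likelihood F test, TMM factors, summed count above 600 in at least 2 sums, Benjamini-Hochberg adjusted p below 0.05 and fold change above 2.6) in R 4.3.3. The mouse was a block in class and subtype comparisons, since sums of a number come from the same animal. Sex and subtype fits had their own TMM factors, and pooled small classes used factors from a joint fit. The p-values rest on mouse ids, 1 of which pools 2 animals.

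Members, lists and tests were chosen with earlier results of these data known. Values are given for every member that reached 5 CPM in a summed class. More detail was set for leading members of each family, the 10 largest called EC-like against ASC-like differences, members called between sexes or subtypes, and textbook pairs. It is given as per-mouse values or, mostly for ASC-like sums, as range, median or mean ± SD, and not for every class. Alternatives were RLE factors, library totals, the likelihood ratio test, DESeq2 1.42.0, other filters, other class assignments, no block, fits of 2 classes alone, fits within plates and leaving out each mouse. Leaving out 9 ribosomal RNA rows was added after seeing the data. Promoter windows are from RefSeq (GRCm38.p6), with none used for 8 members.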

Additional observations from a re-analysis of the deposited data

Results flagged for a closer look

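In 12 of 52 groups of 5 or 7 mouse ids that were examined, the highest sum stood apart from the others by Dixon's criterion at the 95% level. Its chance rate of about 1 in 20 holds for independent groups of normally distributed values. The groups here are CPM values of the same mouse ids, so the number flagged cannot be set against that rate. Of the 12 flagged, 4 were ASC-like sums of mouse 1, the male with the highest ribosomal RNA share (66.9%). They were Slit3 (1245 CPM, the next highest 349.5 CPM), Slit2 (68.38 against 24.3 CPM), Sema5a (48.97 against 23.9 CPM) and Ephb2 (21.95 against 10.37 CPM). Other flagged ASC-like sums were Ephb6 in mouse 3 (13.12 against 6.48 CPM) and Plxna2 in mouse 8 (16.86 against 8.54 CPM).

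In EC-like cells the sum of mouse 8, which held 29 cells, was far above the others for Ephb4 (179.1 against 78.49 CPM), Epha2 (48.64 against 14.37 CPM) and Sema3g (50.12 against 6.79 CPM), and the sum of mouse 5 for Efnb2 (26.14 against 7.88 CPM). Among the subtypes, Efna1 in ASC1b-like cells of mouse 3 (28.89 against 16.2 CPM) and Sema3c in ASC1b-like cells of mouse 1 (87.04 against 40.56 CPM) stood apart.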

How the results depend on the processing

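For 94 called member differences, 1760 values were recomputed under the alternatives. Of these, 1542 kept direction and call, 218 kept direction but lost the call, and 0 changed sign. A total of 42 differences never lost the call. Counts of called members within 1.5 times the reported one are not listed. Without a mouse in turn, the count was 30 to 34 (EC-like minus ASC-like, reported 34), 2 to 13 (mural-like minus ASC-like, 13), 5 to 15 (macrophage-like minus ASC-like, 14), 0 to 4 (mural-like minus EC-like, 3), 5 to 18 (macrophage-like minus EC-like, 18), 1 to 2 (sexes, ASC-like, 2), 0 to 2 (sexes, EC-like, 0), and 3 to 5 (ASC2-like minus ASC1b-like, 5). Within plates 14 members were called between EC-like and ASC-like cells. For mural-like minus ASC-like the count was 0 in a fit of the 2 classes alone, 29 with DESeq2, 26 with the likelihood ratio test, 7 with a filter of 10 counts or none, 2 with classes from each cell's markers and 1 without mixed cells. For mural-like minus EC-like it was 10 with DESeq2, 7 with the likelihood ratio test and 1 with marker classes, and for macrophage-like minus EC-like 7 in a fit of the 2 classes alone. For the sexes in ASC-like cells it was 4 with DESeq2 or the likelihood ratio test and 1 with marker classes, library totals or without mixed cells, and in EC-like cells 1 with DESeq2 or the likelihood ratio test. DESeq2 called 7 members between ASC2-like and ASC1a-like and 2 between ASC1b-like and ASC1a-like cells. Without the mouse as replicate block the count was 23 (mural-like minus ASC-like), 7 (mural-like minus EC-like), 0 (ASC1b-like minus ASC1a-like) and 2 (ASC2-like minus ASC1b-like). The cause of these changes was not tested.

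Counts of called genes over all genes also moved. Without a mouse in turn they were 190 to 1041 for mural-like minus ASC-like (190 without mouse 2, 626 without mouse 1), 616 to 2039 for macrophage-like minus ASC-like (616 without mouse 1, 660 without mouse 5), 100 to 295 for mural-like minus EC-like (100 without mouse 1, 194 without mouse 2), 559 to 1877 for macrophage-like minus EC-like (559 without mouse 5, 634 without mouse 1), 92 to 344 for the sexes in ASC-like cells (92 without mouse 6/7, 113 without mouse 8, 135 to 149 without mouse 2, 4 or 5) and 25 to 38 for ASC1b-like minus ASC1a-like (25 without mouse 2 or 6/7, 27 without mouse 4). Between the sexes in EC-like cells there were 4 calls, against 60 with the likelihood ratio test, 105 with DESeq2, 697 without mouse 1, 1 with RLE factors or without mixed cells, and 0 with other filters or marker classes. In ASC-like cells there were 264, against 594 (DESeq2), 552 (likelihood ratio test), 169 and 167 (other filters). DESeq2 and the likelihood ratio test gave 2407 and 1946 for mural-like minus ASC-like (1045), 1177 and 887 for mural-like minus EC-like (294), 3248 and 2908 for macrophage-like minus ASC-like (1930) and 126 and 94 for ASC1b-like minus ASC1a-like (41, and 27 with either other filter). DESeq2 gave 2917 for macrophage-like minus EC-like (1782). Without the replicate block there were 1613 and 725 for the mural-like comparisons and 185, 5 and 118 for ASC2-like minus ASC1a-like (364), ASC1b-like minus ASC1a-like (41) and ASC2-like minus ASC1b-like (336). Fits of 2 classes alone gave 0 and 105 for mural-like minus ASC-like and EC-like and 1063 for macrophage-like minus EC-like, marker classes 150 and 145 and leaving out mixed cells 223 and 478 for the 2 mural-like comparisons, and the fit within plates 1363 (2803). Leaving out the ribosomal RNA rows changed no count of called members by more than 1.5 times. Mural-like and macrophage-like comparisons rest on 2 sums each, and leaving 1 out assumes that the lone sum varies like the other classes. At this depth 14 of the 60 members did not pass the filter on low counts in the class fit, and fold changes of members with few reads in a class are poorly fixed. Between EC-like and ASC-like cells, class and plate are separated in only 3 plates.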
